A study of Mus musculus with 7 samples.

Results

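The 9 genes that lie beside the largest changes in PU.1 occupancy during osteoclast (OC) formation are described here: Pnoc, G3bp2, Foxp1 and Kif2c, each beside a PU.1 peak that was higher in OCs, and Dpy19l3, Ndufa10, Kcnq1, Nacc2 and Ddc, each beside a peak that was higher in myeloid precursors (MPs). They are 9 of 37310 genes in the mm9 annotation. PU.1 peaks found in both MPs and OCs numbered 60099. Those past 2-fold with an adjusted exact binomial p under 0.05 were ranked by the log2 ratio of their scaled tags. The 5 largest gains and the 5 largest losses by this ratio were taken. Each was named for the gene with the nearest transcription start site (TSS). One of the gains, beside the predicted gene Gm10181, is not among the 9 genes. The MP and OC tags of these peaks therefore chose the genes, and both are given as a description with no test. For every gene, PU.1 and MITF peaks were collected whose centers lay in the gene or within 50 kb of either end, or within 200 kb for Foxp1. These windows held 148 of 76243 PU.1 peaks in MPs, 143 of 71941 at 36 h and 149 of 77072 in OCs.

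In ChIP-Seq an antibody pulls down DNA bound by 1 protein, the DNA is sequenced, and a peak is a place where many sequenced ends (tags) gather. Bone marrow myeloid cells of C57BLACK6 mice aged 4 to 6 weeks were grown for 3 days in 50 ng/ml CSF1, and these are the MPs. Addition of 100 ng/ml RANKL for 36 h or for 72 h gave the intermediate cells and the OCs. Chromatin was precipitated with 5 µg of antibody to PU.1 or MITF at each time and with non-specific IgG in MPs, which gives 7 libraries with 1 library per condition. There is no replicate check on any value below. Intervals are 95% intervals (Poisson for tags, Clopper-Pearson for ratios of tags) and cover counting error only. For the chosen peaks they show precision and are no test of a change.

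PU.1, encoded by Spi1, is an ETS family transcription factor that myeloid cells need, and it binds DNA at sites with a GGAA core. MITF, of the helix-loop-helix class, recognizes E-box sequences and acts with PU.1 at genes of the osteoclast. RANKL is the cytokine that turns CSF1-dependent precursors into bone-resorbing OCs.

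The 4 gained peaks are printed first because they are the DNA under 4 of the 5 largest rises by ratio of PU.1 tags. The sequence is that of the plus strand of mm9 over the OC peak, 151 bases each, and capitals mark GAGGAA or its complement TTCCTC.
Pnoc, chr14:66033245-66033395: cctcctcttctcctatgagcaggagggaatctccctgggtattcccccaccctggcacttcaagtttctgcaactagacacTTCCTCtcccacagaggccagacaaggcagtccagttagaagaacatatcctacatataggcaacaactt
G3bp2, chr5:92520856-92521006: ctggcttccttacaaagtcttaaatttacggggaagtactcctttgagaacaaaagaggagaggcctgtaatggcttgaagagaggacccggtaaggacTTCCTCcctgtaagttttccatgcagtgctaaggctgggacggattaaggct
Foxp1, chr6:98796369-98796519: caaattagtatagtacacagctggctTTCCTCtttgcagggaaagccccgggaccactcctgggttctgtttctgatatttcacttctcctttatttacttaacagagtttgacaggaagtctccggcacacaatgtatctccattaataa
Kif2c, chr4:116840023-116840173: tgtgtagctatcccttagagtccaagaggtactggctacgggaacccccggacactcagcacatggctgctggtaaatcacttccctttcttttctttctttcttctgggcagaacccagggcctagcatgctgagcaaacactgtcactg

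The 5 peaks with the largest losses follow over their MP coordinates. Capitals mark GAGGAA or TTCCTC, and also TGANTCA, the sequence that AP-1 dimers bind.
Dpy19l3, chr7:36527411-36527561: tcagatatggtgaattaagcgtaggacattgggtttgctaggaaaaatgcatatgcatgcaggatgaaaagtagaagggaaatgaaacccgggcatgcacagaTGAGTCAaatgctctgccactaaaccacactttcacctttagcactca
Ndufa10, chr1:94269244-94269394: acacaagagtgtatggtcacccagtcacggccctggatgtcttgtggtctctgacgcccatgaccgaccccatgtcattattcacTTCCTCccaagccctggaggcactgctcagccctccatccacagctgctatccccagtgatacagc
Kcnq1, chr7:150318917-150319067: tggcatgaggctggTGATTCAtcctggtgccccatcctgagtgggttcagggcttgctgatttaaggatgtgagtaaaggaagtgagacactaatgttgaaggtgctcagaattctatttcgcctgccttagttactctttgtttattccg
Nacc2, chr2:25933641-25933791: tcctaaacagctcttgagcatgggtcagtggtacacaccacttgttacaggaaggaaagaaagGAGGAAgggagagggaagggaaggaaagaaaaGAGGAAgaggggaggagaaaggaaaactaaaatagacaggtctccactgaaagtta
Ddc, chr11:11719337-11719487: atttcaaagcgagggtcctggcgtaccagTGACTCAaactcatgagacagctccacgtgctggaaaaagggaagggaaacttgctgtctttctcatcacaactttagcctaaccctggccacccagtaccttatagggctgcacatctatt

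GAGGAA stood in 3 of the 4 gained peaks, on the minus strand each time. Kif2c had none, but it had the shorter GGAA core 8 bp from its center. Of all PU.1 OC peaks 55.8% held GAGGAA. Among the lost peaks 2 of 5 held it, Ndufa10 with 1 copy and Nacc2 with 2, and 55.0% of all PU.1 MP peaks did. The GGAA core was found in 4 of 4 gained and 5 of 5 lost peaks, and 99.2% of OC peaks and 99.0% of MP peaks held it. This shorter search was added after the sequences had been read.

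TGANTCA was present in the lost peaks of Dpy19l3, Kcnq1 and Ddc, that is in 3 of 5, and in 0 of 4 gained peaks. It is a palindrome, so both strands count once, and it was in 9.56% of all MP peaks and in 8.57% of all OC peaks. The match lay 31 bp from the center at Dpy19l3, 43 bp at Ddc and 58 bp at Kcnq1. TGTGGT, which RUNX factors bind, was in 2 of 5 lost peaks (Dpy19l3 and Ndufa10) and in 0 of 4 gained peaks, against 13.6% of MP and 13.1% of OC peaks. The palindromic E-box CACGTG that MITF can bind was in the Ddc peak and in no other of the 9, and 2.45% of all MP peaks held it. The general E-box CANNTG, which includes it, was in 2 of 4 gained and 4 of 5 lost peaks (51.6% of OC and 51.8% of MP peaks). GAAANNGAA, a form of the site that IRF factors bind, was in the gained peaks of Foxp1 and Kif2c and in the lost peak of Kcnq1 (8.05% of OC and 8.30% of MP peaks). The longer PU.1 site GAGGAAGT was in 2 of 4 gained and 1 of 5 lost peaks (22.3% of OC and 22.1% of MP peaks), TTGCNNAA, for C/EBP factors, in 1 of 4 and 0 of 5 (8.34% and 8.47%) and TGGAAA, for NFAT, in 1 of 4 and 1 of 5 (13.8% and 13.9%). These are all 10 motifs searched. The search was on both strands, a match does not show that a factor was bound, and with 9 peaks no share was tested.

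The changed peaks were followed through all 3 PU.1 libraries. The Peak Score counts the tags of a peak per 10000000 tags of the library, if HOMER's default scale was used. One tag was worth 1.7058 in MPs, 1.4781 at 36 h and 1.4684 in OCs, so tags could be recovered from the scores. Peaks of the 36 h list are mostly 190 bp wide and those of the MP and OC lists 150 bp, so a 36 h peak collects tags over more DNA. Changes are log2 ratios of tags after division by the median ratio of all shared peaks, which takes out an offset common to all peaks, and at least 2-fold is called higher or lower. Between MPs and OCs 3.00% of all shared peaks were higher and 2.38% lower by this rule, and the 9 chosen peaks are so by choice.

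Pnoc encodes prepronociceptin, the precursor of the neuropeptide nociceptin (chromosome 14, 66019510 to 66044046, minus strand). Its changed peak lies in an intron, 10726 bp from the TSS. It scored 10.2 in MPs (6 tags, interval 2.2 to 13.1), 103.5 at 36 h (70 tags, 54.6 to 88.4) and 88.1 in OCs (60 tags, 45.8 to 77.2). The level was low in MPs and high in both RANKL libraries. The first step was 3.46 on the log2 scale (2.27 to 4.96), and the second was -0.34 (-0.86 to 0.18). The peak ranked 8 of 10 by score in its window in MPs and 1 of 8 at 36 h, and its part of the summed PU.1 score of the window went from 5.93% to 42.7% and then to 35.5% in OCs.

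Its neighbors were all lower than the changed peak at 36 h and in OCs. The highest neighbor, intergenic and 18350 bp away, scored 42.6, 50.3 and 35.2 in MPs, at 36 h and in OCs. A second intronic peak of Pnoc, 2475 bp from the changed one, was in the MP list at 10.2 and in the OC list at 22.0 and had no peak at 36 h (log2 1.13, from 6 and 15 tags). A peak in an intron of Zfp395, a zinc finger gene, went from 20.5 to 10.3 and back to 29.4 on 7 to 20 tags. The summed score without the changed peak was 161.9, 138.8 and 160.1.

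G3bp2 encodes an RNA-binding protein that nucleates stress granules (chromosome 5, 92481172 to 92512761, minus strand). Its changed peak lies 8170 bp upstream of the TSS, in an intron of the predicted gene Gm15710. The scores were 10.2 in MPs (6 tags), 17.7 at 36 h (12 tags) and 51.4 in OCs (35 tags). Here the first step was 0.92 (-0.61 to 2.62), and the second was 1.43 (0.45 to 2.51). Of the 4 gains this was the one whose larger step came after 36 h. The MP and OC peak centers were 53 bp apart, against a median of 12 bp and a 90th percentile of 37.0 bp over all shared peaks.

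Farther upstream of G3bp2 other PU.1 peaks follow. The next, 991 bp on, scored 25.6, 32.5 and 41.1, and the one after, 1513 bp on, scored 29.0, 23.7 and 39.6. A pair of stronger peaks followed at 6635 bp (104.1, 90.2 and 96.9) and 15572 bp (126.2, 113.8 and 142.4), and these changed by less than 2-fold in every comparison. The last of them had an overlapping MITF peak at 36 h (score 12.7) and in OCs (9.1), and none was listed in MPs. The OC value is the lowest score of that MITF list. The 7 neighbors shared by MPs and OCs ran from -0.08 to 0.92 with a median of 0.20.

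Foxp1 encodes a forkhead transcription factor (chromosome 6, 98875332 to 99216526, minus strand). The changed peak is intergenic, 78888 bp beyond the end of the gene and 157230 bp from the nearest annotated Foxp1 TSS. It scored 10.2 in MPs (6 tags), 50.3 at 36 h (34 tags) and 51.4 in OCs (35 tags). The 36 h and OC values were close: the first step was 2.42 (1.15 to 3.96) and the second -0.07 (-0.80 to 0.65).

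Foxp1, with the widest window, had 57, 48 and 58 PU.1 peaks, and the changed peak was a small part of it (0.465% of the summed score in MPs and 2.49% in OCs). The neighbor that was highest in MPs was intronic, with 191.0, 128.6 and 136.6, and held a MITF peak in MPs (12.5). Another intronic peak, with 134.8, 138.9 and 142.4, was the highest at 36 h and in OCs and held a MITF peak in MPs (11.4). An intronic peak with 141.6, 94.6 and 139.5 held a MITF peak in MPs alone (13.5). MITF was listed at every time (14.5, 13.6 and 9.1) over an intronic peak with 151.8, 93.1 and 117.5. A further intronic peak fell at 36 h and partly came back, with 121.1, 50.3 and 88.1 (log2 -1.14 and 0.70). It had a MITF peak of 14.5 in MPs and 9.1 in OCs. The OC value of 9.1 is the lowest score of that MITF list. A weaker intronic PU.1 peak fell in the first step from 40.9 to 17.7 (24 and 12 tags, log2 -1.08), with 30.8 in OCs (21 tags). One intronic peak fell by OCs, with 40.9, 28.1 and 19.1 (24, 19 and 13 tags, log2 -1.08). In the second step an intronic peak rose, with 20.5, 11.8 and 26.4 (12, 8 and 18 tags, log2 1.05). The 44 shared neighbors had a median of -0.17 between MPs and OCs.

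Kif2c encodes a kinesin that depolymerizes microtubules during mitosis (chromosome 4, 116832244 to 116855244, minus strand). Its changed peak lies in an intron of Kif2c, 2083 bp from the nearest annotated Kif2c TSS. The scores were 10.2 in MPs (6 tags), 68.0 at 36 h (46 tags) and 48.5 in OCs (33 tags). The first step was 2.86 (1.63 to 4.37), and the second was -0.59 (-1.29 to 0.08). Its MP and OC centers were 48 bp apart, more than the 90th percentile of all shared peaks.

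A neighbor in an exon of Kif2c, 2494 bp from the changed peak, was also highest at 36 h, with 17.1, 41.4 and 20.6 (10, 28 and 14 tags). Its rise of 1.40 was followed by -1.12. Unlike the changed peak it was back near its MP level in OCs. A peak in an intron of Gm1661 did the reverse, with 54.6, 20.7 and 45.5 (32, 14 and 31 tags). The highest peak of all 9 windows lay here, in an exon of Tctex1d4 at 9 bp from its TSS, with 283.2, 224.7 and 221.7 and a MITF peak in all 3 libraries (17.7, 12.7 and 9.1). It changed by less than 2-fold.

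**Figure D1:**
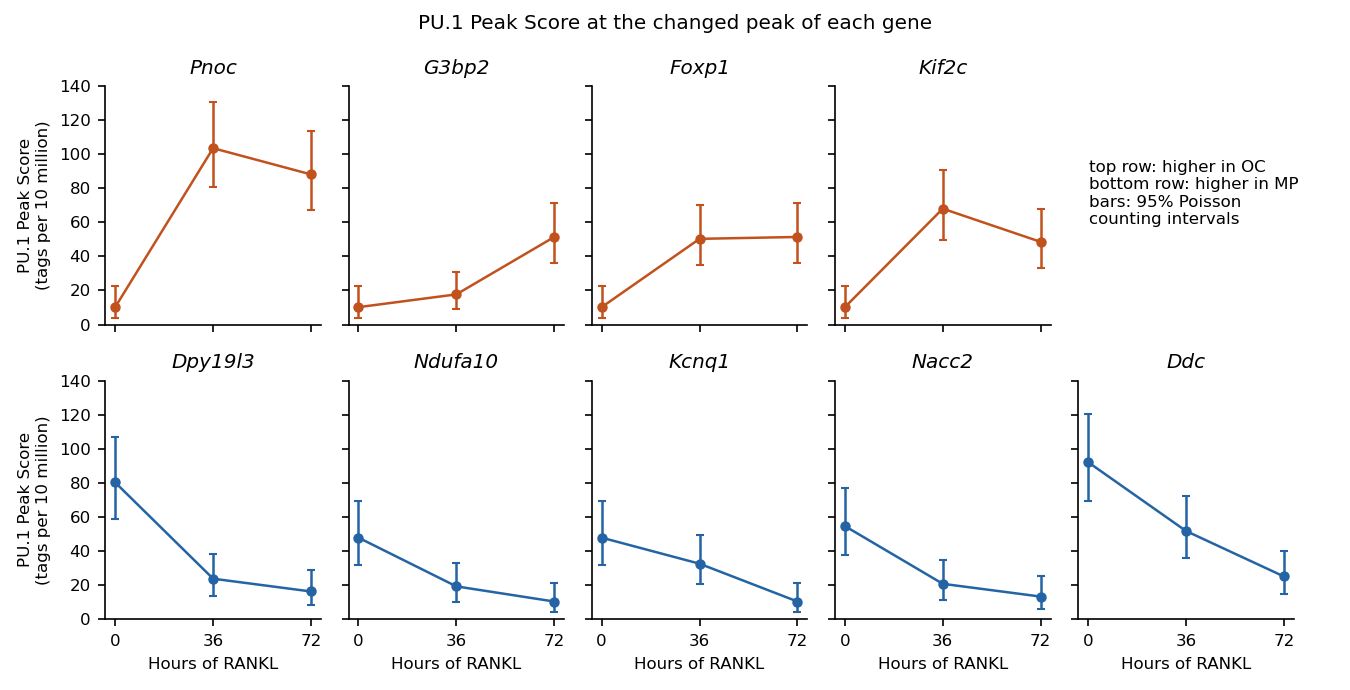
PU.1 Peak Score (tags per 10000000) of the changed peak of each gene against hours of RANKL (0 is MPs, 72 is OCs), 1 library per point, with bars for the 95% Poisson counting interval. Pnoc, Foxp1 and Kif2c are high by 36 h and G3bp2 only at 72 h, and each of the 5 losses has its 36 h value between those of MPs and OCs.

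The losses begin with Dpy19l3, which encodes a C-mannosyltransferase (chromosome 7, 36470184 to 36539473, minus strand). Its changed peak lies in an intron, 11888 bp from the nearest TSS. It scored 80.2 in MPs (47 tags), 23.7 at 36 h (16 tags) and 16.2 in OCs (11 tags). Most of the loss had taken place by 36 h, with a first step of -1.64 (-2.55 to -0.79) and a second of -0.66 (-1.91 to 0.54). The peak was the highest of 7 in its window in MPs and ranked 5 of 6 in OCs, and its part of the summed score fell from 40.6% to 20.5% and 14.9%.

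In the Dpy19l3 window no neighbor passed a score of 40.9. That value belonged to a peak in an intron of Zfp507 in MPs, which was 17.6 in OCs with no overlapping peak at 36 h (log2 -1.19, 24 and 12 tags). A 36 h peak of 16.3 (11 tags) lay just beside it, at 53964 bp from the changed peak against 53767 bp. Another intronic peak of Dpy19l3 scored 25.6, 34.0 and 25 and did not follow the changed one. A small peak 1065 bp from the changed one was listed at 36 h (13.3) and in OCs (13.2) but not in MPs.

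Ndufa10 encodes an accessory subunit of respiratory complex I (chromosome 1, 94335587 to 94370437, minus strand). Its changed peak is intergenic and lies 66268 bp outside the gene, beyond the 50 kb window, and is the 1 of 9 that the window does not hold. The scores were 47.8 in MPs (28 tags), 19.2 at 36 h (13 tags) and 10.3 in OCs (7 tags). Both steps were downward and close in size, -1.19 (-2.26 to -0.19) and -1.01 (-2.57 to 0.42). The strongest neighbor, also intergenic and 21690 bp from it, scored 122.8, 112.3 and 86.6, which is a change of -0.48. None of its 5 shared neighbors changed 2-fold.

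Kcnq1 encodes the pore subunit of a voltage-gated potassium channel (chromosome 7, 150293159 to 150612955, plus strand). Its changed peak is intronic, 15671 bp from the nearest Kcnq1 TSS. It scored 47.8 in MPs (28 tags), 32.5 at 36 h (22 tags) and 10.3 in OCs (7 tags). By point estimates this was the latest of the losses: the first step was -0.43 (-1.31 to 0.43), and the second was -1.77 (-3.24 to -0.49). At 36 h it still ranked 10 of 26 in the window, and in OCs 24 of 25.

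The closest MITF peak to any of the 9 changed peaks was in this gene, 13649 bp from the changed peak, over an intronic PU.1 peak that moved the other way (22.2, 31 and 41.1). MITF was listed there at 36 h (9.7) and in OCs (10.3) and not in MPs. The 36 h value is the lowest score of that list. The highest peak of the window in MPs and OCs lay in an intron of Cd81, a tetraspanin gene, at 167.2, 119.7 and 145.4. At 36 h the highest was an intronic peak of Kcnq1 with 127.9, 138.9 and 116.0, which held a MITF peak at all 3 times (9.3, 24.3 and 11.4). One intronic peak rose 2-fold by 36 h (11.9, 25.1 and 20.6, from 7, 17 and 14 tags) and one fell 2-fold by OCs (22.2, 11.8 and 10.3, from 13, 8 and 7 tags). The single IgG peak of all windows also lay in an intron of Kcnq1 (score 57.7, 18 tags) and overlapped no PU.1 peak.

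Nacc2 encodes a BTB domain transcriptional repressor (chromosome 2, 25911055 to 25978740, minus strand). The changed peak is intronic, 12179 bp from the nearest TSS. It scored 54.6 in MPs (32 tags), 20.7 at 36 h (14 tags) and 13.2 in OCs (9 tags), with a first step of -1.28 (-2.30 to -0.33) and a second of -0.75 (-2.14 to 0.56). Other peaks of the gene were level or higher, and 0 of 6 shared neighbors changed 2-fold. An intronic peak 718 bp from a Nacc2 TSS scored 27.3, 34.0 and 49.9 (log2 0.89 between MPs and OCs). The highest neighbor, also intronic, scored 73.3, 81.3 and 83.7. It had a MITF peak listed in OCs alone, at 9.1, the lowest score of that list. The summed score of the window without the changed peak was 175.7 in MPs, 224.6 at 36 h and 258.5 in OCs. The window held 7, 9 and 11 peaks, and a site absent from a list adds nothing to its sum. Part of the rise therefore comes from sites that are not in the MP list and scored 10.3 to 13.2 in OCs.

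Ddc encodes aromatic L-amino acid decarboxylase, which makes dopamine and serotonin (chromosome 11, 11714104 to 11798047, minus strand). The MP center of its changed peak lies in an intron, 3512 bp from the nearest Ddc TSS. The OC center, 33 bp away, lies in an exon. The deposited list gives Fignl1 as the nearest RefSeq gene. The scores were 92.1 in MPs (54 tags), 51.7 at 36 h (35 tags) and 25 in OCs (17 tags), a change downward in both steps, of -0.71 (-1.36 to -0.07) and -1.16 (-2.09 to -0.28). It was the highest of 13 peaks in its window at 36 h and ranked 5 of 13 in OCs.

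Of the neighbors that fell 2-fold from MPs to OCs, 2 lay around Ddc. A peak in an intron of Grb10, an adaptor of the insulin receptor, 121608 bp away, fell from 110.9 to 47.3 at 36 h and was 48.5 in OCs (log2 -1.17 between MPs and OCs). By point estimates its loss came by 36 h, while the Ddc peak fell in both steps. A weaker intergenic peak, 42307 bp on the other side, fell from 27.3 to 11.8 and 11.7 (16, 8 and 8 tags). A peak in an intron of Ddc itself had 58.0, 34.0 and 47.0, which is less than 2-fold, and the median of the 7 shared neighbors was -0.28.

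**Figure D2:**
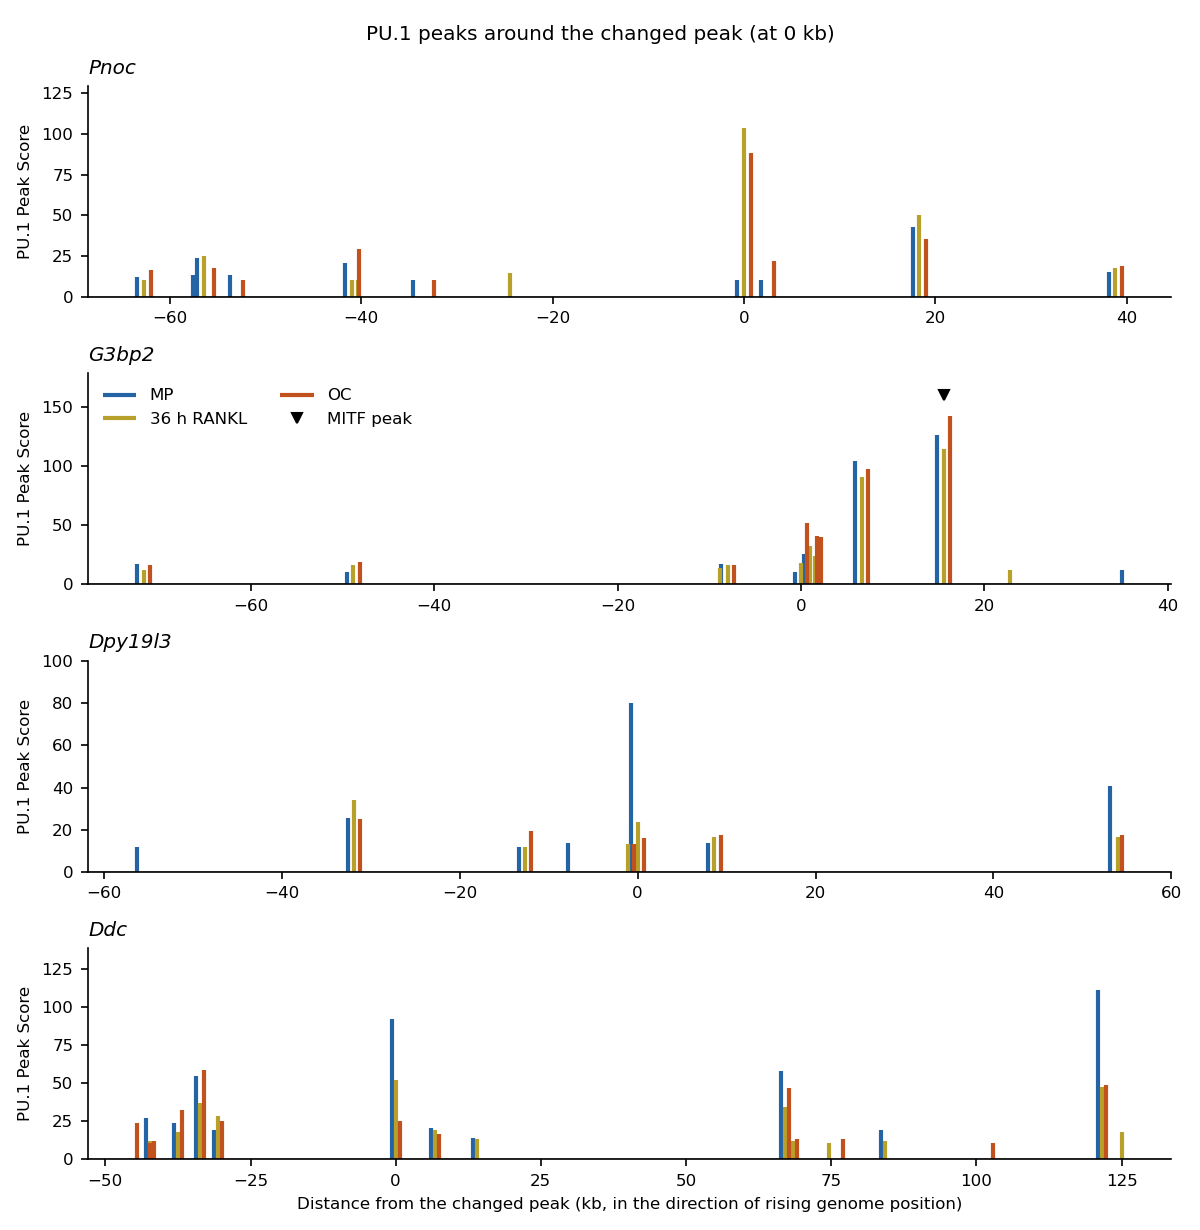
PU.1 Peak Score (vertical axis) at every PU.1 peak of 4 windows against distance from the changed peak in kb. MP, 36 h and OC bars of a site are drawn side by side with a small offset, and a triangle marks a MITF peak of any time. The changed peak at 0 kb is the highest after RANKL at Pnoc and the highest in MPs at Dpy19l3, stronger peaks that hardly changed lie beside it at G3bp2, and at Ddc a second peak, at the far right, is also highest in MPs.

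Set beside each other, the 9 genes differed in which step had the larger point estimate. The first-step intervals of the 5 losses overlap one another, as do their second-step intervals. Overlap of intervals is no test. A difference in timing is not shown among the losses, and it was not tested among the losses or the gains. The larger step came before 36 h in 3 of 4 gains and in 3 of 5 losses. By 36 h 3 of 4 gains were already 2-fold higher (4.02% of all peaks shared by MPs and 36 h were) and 3 of 5 losses 2-fold lower (3.41%). After 36 h 1 of 4 gains rose 2-fold, against 2.01% of all shared peaks, and 3 of 5 losses fell 2-fold, against 2.61%. Since the peaks were chosen by both ends of the course, these counts describe the 9 peaks and nothing more is read from them. Among the other pairs that passed a 2-fold change and an adjusted exact binomial p under 0.05, used here only to find pairs, 34 of 37 gains and 35 of 47 losses with a 36 h peak had the larger step before 36 h. These pairs too were chosen by their MP and OC tags, and the share over all peaks was not counted. Over all shared peaks the first step was also more spread (standard deviation of log2 0.55, against 0.48 for the second).

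**Figure D3:**
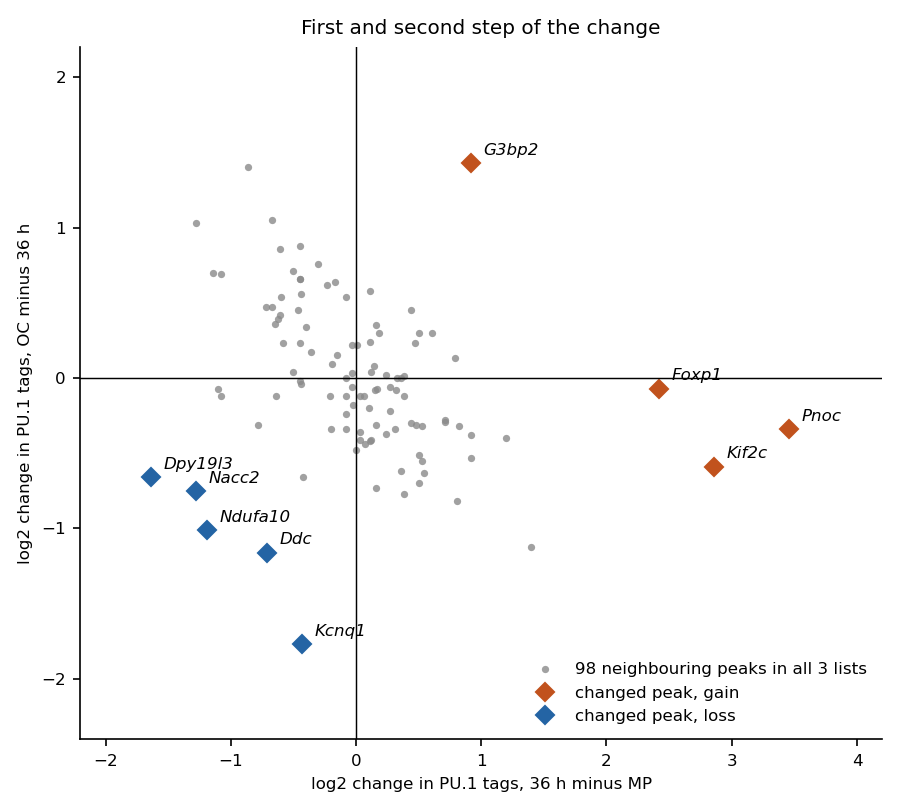
The log2 change from MPs to 36 h (horizontal axis) against that from 36 h to OCs (vertical axis) for the 9 changed peaks (diamonds) and the 98 neighbors in all 3 lists (points). Both axes use the 36 h library, so the coordinates of a point are not independent. Pnoc, Foxp1 and Kif2c lie at the right near 0 on the vertical axis, and G3bp2 lies above. By point estimates the losses run from Dpy19l3 (mostly early) to Kcnq1 (mostly late).

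The neighbors were counted by the same rule. The windows held 187 neighboring PU.1 sites, and 98 of them (52.4%) were in all 3 lists, as were 50.5% of all 102376 sites. From MPs to OCs 1 of 110 shared neighbors was 2-fold higher (3.00% of all shared peaks) and 5 were lower (2.38%). In the first step 2 of 107 were higher (1.87%, against 4.02% of all shared peaks) and 5 lower (4.67%, against 3.41%). In the second step 3 of 110 were higher (2.73%, against 2.01%) and 1 lower (0.909%, against 2.61%). With at least 30 tags, 1 of 62 neighbors was higher and 4 were lower in the first step (3.21% and 3.91% of all such peaks), 1 of 62 higher and 1 lower in the second (2.13% and 1.96%), and 0 of 61 higher and 3 lower from MPs to OCs (2.57% and 2.13%). The median neighbor changed by 0.03, -0.07 and -0.06 in the first step, the second and from MPs to OCs. The 5 that fell by OCs lay at Foxp1, Dpy19l3, Kcnq1 and, with 2, Ddc.

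**Figure D4:**
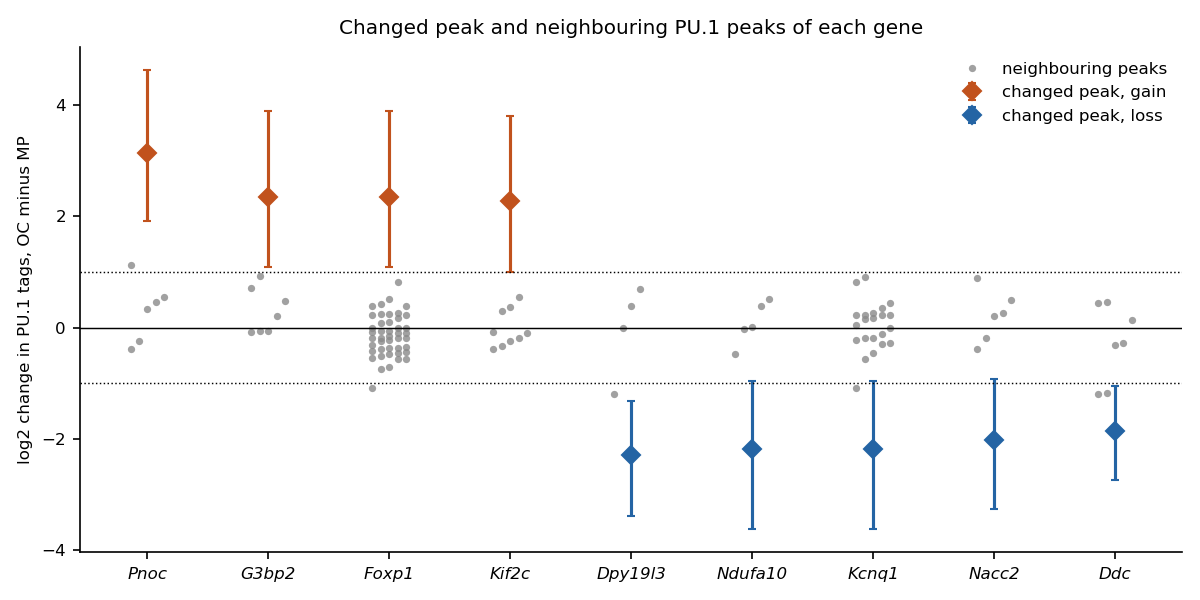
The log2 change in PU.1 tags from MPs to OCs for the changed peak of each gene (diamonds, with 95% Clopper-Pearson counting intervals) and for its shared neighbors (points), with dotted lines at 2-fold. Neighbors run from -1.19 to 1.13, and the changed peaks, which were chosen for their size, lie beyond 2.27 for gains and -1.86 for losses or at these values.

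No MITF peak overlapped a changed peak at any time (0 of 9). Of the neighboring sites 13 of 187 (6.95%) overlapped one, and of all PU.1 sites 7.02% did. Overlap with MITF went with PU.1 score over all sites, from 0.0796% of those with a highest score under 25 to 20.8% from 75 to 100 and 83.8% at 150 or more. Only 3 of the 9 changed peaks reached 75 (Pnoc, Dpy19l3 and Ddc), and 11 of the 20 neighbors that reached 75 had MITF. The windows held 10, 6 and 8 MITF peaks in MPs, at 36 h and in OCs, and 0 of them lay off a PU.1 site. Foxp1, Kif2c and Kcnq1 held most of them, and Pnoc, Dpy19l3, Ndufa10 and Ddc had none. The MITF lists start at 9.3 in MPs (9 tags), 9.7 at 36 h (10 tags) and 9.1 in OCs (8 tags). A site absent from a MITF list may hold tags below that start, and gain or loss of MITF was not tested.

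Of the 9 changed peaks 6 stood at the lowest tags of a list at their low end. The PU.1 MP list starts at 6 tags, and all 4 gains stood at 6 tags in MPs. The PU.1 OC list starts at 7 tags, where the losses of Ndufa10 and Kcnq1 stood in OCs. Among all shared peaks 3285 were at the lowest MP value and 2755 at the lowest OC value. A site without a peak in one list has no ratio and could not be chosen. There were 184 OC peaks with no MP partner and at least 33 tags, the least that a chosen gain had in OCs, and 220 MP peaks with no OC partner and at least 28 tags, the least that a chosen loss had in MPs.

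The values just inside and outside the choice were close. The last gain taken was Kif2c at 2.27, and the next were peaks at Aldh16a1 (2.15, with 20.5, 73.9 and 89.6), Icam1 (2.15, with 22.2, 103.5 and 96.9) and C2cd2 (2.10, with 15.4, 45.8 and 64.6). The gain at Gm10181 scored 11.9, 28.1 and 67.5. Among losses Ddc was the last at -1.86, the next peak, at the same rounded value, scored 64.8, 14.8 and 17.6, and the one near Cdca7 (-1.85) scored 69.9, 11.8 and 19.1. A further loss near Tas2r134 (-1.84) went from 85.3 to 10.3 and 23.5.

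Relatives and partners of the 9 genes were looked up in the same way, with 50 kb windows. These were 22 genes, 20 of which had a PU.1 peak in MPs and in OCs, while Foxp2 and Kif2b had none. Of their 107 shared peaks 6 were 2-fold higher in OCs (5.61%, against 3.00% of all) and 0 were lower (2.38%). These 6 had only 6 to 11 tags in MPs, and the share with at least 30 tags was not counted. The 107 adds the genes together. Kcne1 and Kcne2 had the same highest scores (32.4, 45.8 and 49.9), so a peak may be counted more than once. The 6 lay at Kif2a, a paralog of Kif2c (15.4 to 47.0 and 13.6 to 30.8), Foxp3 (18.8 to 48.5), Nacc1 (15.4 to 36.7), Dbh, which turns dopamine into noradrenaline (15.4 to 36.7), and Caprin1, a partner of G3bp proteins (10.2 to 22.0). Except at Caprin1, these peaks lie outside the gene named, in or beside Ppp1r3f at Foxp3, Nfix at Nacc1 and Fam163b at Dbh. A MITF peak was found at 6 of the 22 genes, G3bp1, Caprin1, Kif2a, Ndufs1, Kcne3 and Tph1.

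The labels call the cells bone marrow myeloid cells, and PU.1 was bound at defining myeloid genes. Csf1r, Itgam, Spi1 (Sfpi1 in the annotation) and Emr1 had highest peaks of 194.5 to 226.9 in MPs. In the same library the highest peaks of 4 osteoclast genes (Ctsk, Acp5, Calcr and Itgb3) scored 23.9 to 283.2. Those of 4 lymphoid genes (Cd3e, Cd8a, Ebf1 and Pax5) scored 17.1 to 69.9. The lymphoid genes had no MITF peak, and neither did the osteoclast genes Calcr and Itgb3. The files measure binding and not expression, and the expression of the 9 genes was not analysed here.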

How the data were processed

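The 7 ChIP-Seq libraries (PU.1 and MITF at 3 times, IgG in MPs) were grouped by their labels. Per the submitters' processing notes, CASAVA 1.8, Bowtie2 and HOMER were used on mm9, and peaks were called per library. Versions of the others and the settings are not given in the sources used here. The deposited unit is a signal: the authors' Peak Score, the tags in a peak scaled to a common library size. Scores were whole multiples of 1 value per list to within 0.0515, which gave the tags. Implied library sizes were 3120000 (IgG) to 10270000 tags (MITF 36 h), and 5860000 to 6810000 for PU.1. Widths of the MITF 36 h list run from 150 to 1387 bp.

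Peaks were paired 1 to 1 by an overlap of at least 1 bp, nearest centers first. Tag ratios were divided by the median ratio of all pairs (1.0588 for MPs to 36 h, 1.0833 for 36 h to OCs and 1.1429 for MPs to OCs). The changed peak was the pair with the largest change past 2-fold and an adjusted exact binomial p under 0.05 over all 60099 pairs. This p served only to find it, and 94 pairs passed. Neighbors named include the one with the highest score in each window and all past 2-fold. Others, near the changed peak or in the same gene, were picked for the description. Tags are given for neighbors past 2-fold with under 30 tags at a time. Genes, lists and rules were chosen with earlier results of these data known. Places and TSSs come from the GENCODE annotation of mm9 and sequences from the NCBIM37 genome, read with samtools 1.23.1. Python 3.11.15, numpy 2.4.6, scipy 1.17.1 and matplotlib 3.10.9 were used. Pairing, intervals and tag recovery were tested on simulated data. Other windows, overlaps, scalings and score thresholds were tried as alternatives.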

Additional observations from a re-analysis of the deposited data

How the results depend on the processing

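The steps of the 9 changed peaks before and after 36 h stayed within their counting intervals under library-size scaling and with centers within 100 bp, in 36 of 36 alternatives. Library-size scaling shifts every step of a comparison by 1 constant, and pairing by centers kept the same peaks and tags. Neither could have moved a step out of intervals this wide, so the count is no check of the steps. Library-size scaling moved Foxp1's second step from -0.07 to 0.03, both inside the interval. With only peaks of at least 2 times the lowest score, the windows held 83, 76 and 77 PU.1 peaks and 0, 1 and 0 MITF peaks in MPs, at 36 h and in OCs. Under that threshold neighbors past 2-fold numbered 0 higher and 3 lower from MPs to 36 h. They were 1 higher and 1 lower from 36 h to OCs, and 0 higher and 1 lower from MPs to OCs. With at least 30 tags per pair they were 1 higher and 4 lower from MPs to 36 h. From 36 h to OCs they were 1 higher and 1 lower, and from MPs to OCs 0 higher and 3 lower. Without the changed peak, the log2 change in summed PU.1 score from MPs to OCs was -0.02 at Pnoc and -0.35 at Dpy19l3, where it had been 0.53 and -0.86. Over all windows and the changed peaks, the other 76 of 93 alternatives moved no count by over 1.5 times and no value out of its interval. These 76 include the 36 for the steps of the changed peaks. Peak counts of single windows moved by over 1.5 times in 63 of 135 alternatives, which change the window or the score threshold. No paired analysis was possible because each condition has 1 library and the labels give no replicate numbers. Leaving out a replicate was not possible for the same reason. Depth limits the low ends most: 6 tags in MPs allow 2.2 to 13.1.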
